A study of Bos taurus with 12 samples.

Results

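The miRNAs described here are those of epithelium: the miR-200 family (miR-200a, miR-200b, miR-200c, miR-141 and miR-429) with miR-205, miR-203, miR-203b and miR-375. They were measured by small RNA sequencing in blood of 12 Chinese Holstein dairy cows. Members were chosen by name, without the species prefix, the arm, the copy number and the suffix for length or base variants, and 19 of the 1981 distinct rows of the count table carried one of the 9 names. The 6 heat resistant and 6 heat stressed cows were told apart by the study, which combined their rectal temperature and their fall in milk yield in a principal component analysis. The tissue label is blood, with no fraction named, and age is not labelled.

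Epithelial miRNAs are known for holding cells in the epithelial state. The miR-200 family does so by repressing ZEB1 and ZEB2, transcription factors that silence E-cadherin. It falls into miR-200b, miR-200c and miR-429, which share one seed (the bases that pair with targets), and miR-200a and miR-141, which share another that differs from it by a single base. miR-205 acts on the same ZEB factors and is abundant in basal cells of skin and mammary gland. miR-203 drives skin cells out of division by repressing p63, as shown in the mouse, and miR-375 is a miRNA of pancreatic islets and other secretory epithelium that restrains insulin release in the mouse. In the cattle gene table of RefSeq (ARS-UCD2.0), which listed 7 of the 9 members, MIR429, MIR200A and MIR200B stood next to each other without another gene between them, and so did MIR141 and MIR200C.

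Libraries held between 4395454 and 10601301 counts over all rows. Levels are given as CPM (counts scaled to a common adjusted library total). Red cell markers (miR-451, miR-486 and miR-144) summed to 20209 to 97785 CPM in heat resistant and 26234 to 82253 CPM in heat stressed libraries. The blood cell miRNAs miR-223 and miR-142 summed to 18531 to 39076 CPM in heat resistant and 29453 to 48495 CPM in heat stressed libraries. Both sums were thus high in every library. Lymphocyte markers (miR-150 and miR-342) were lower, at 3950 to 5702 CPM in heat resistant and 5402 to 12231 CPM in heat stressed libraries. The platelet marker miR-126 had 4165 to 7020 and 2599 to 8827 CPM in the same order. Libraries 1 and 2 of the heat resistant group stood apart in the liver markers miR-122 and miR-885, with 147897 and 158490 CPM in sum. The highest heat stressed library held 45578 CPM of these liver markers.

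All 19 rows together held 1.10 ± 0.420% of the counts in heat resistant and 0.932 ± 0.110% in heat stressed libraries (SD, n = 6 each). The lowest share was 0.645%, in heat resistant library 4, and the highest 1.77%, in heat resistant library 1. The main form of miR-375 made up a median of 40.6% of these reads per library, and the 5 main forms of the miR-200 family a median of 36.1%. A main form is here the most abundant row of a member, and in each member other than miR-203 and miR-203b it carried the cattle name. miR-203 reads stood on a row with a mouse name. Blood is a mixture, so fewer cells releasing a miRNA and less of it per cell cannot be told apart in these values.

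The main forms spanned a wide range of levels. Mean CPM over the 12 libraries was 4135 for miR-375, 1812 for miR-200a, 1498 for miR-203, 839 for miR-205, 736 for miR-200b, 455 for miR-141, 390 for miR-200c and 104 for miR-429. By this level miR-375 ranked 47 and miR-429 ranked 200 among the 756 features that passed the filter on low counts. miR-375 was above miR-200a in all 12 libraries, as were miR-203 above miR-205, miR-200b above miR-141, and miR-200c above miR-429. The other neighbours in this order changed places: miR-200a was above miR-203 in 10 of 12 libraries, miR-141 above miR-200c in 10 of 12, and miR-205 above miR-200b in 7 of 12.

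**Figure D1:**
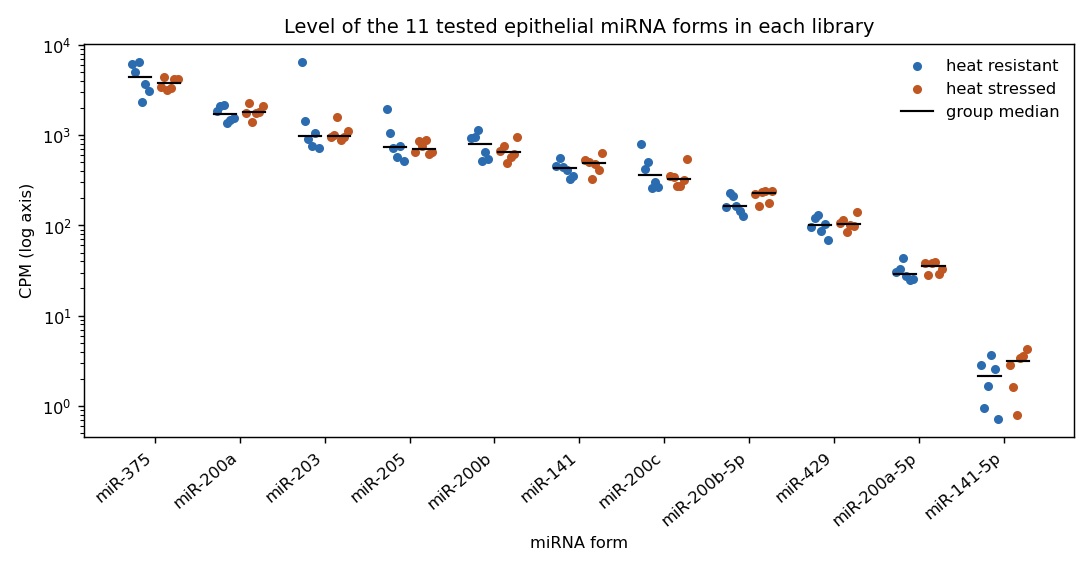
CPM (log axis) of the 11 tested forms in each of the 12 libraries, with a point per library and a line at each group's median. The groups overlap for every form, and 1 heat resistant library lies far above the others for miR-203, at 6526 CPM.

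Within the miR-200 family, some counts were not whole. Values that were not whole occurred for miR-200a and miR-141 in the same 4 libraries, and for miR-200b and miR-200c in the same 6 libraries, while miR-429, miR-205, miR-203 and miR-375 had whole values throughout. Each such pair has a common seed, though miR-429, with the seed of miR-200b and miR-200c, had whole values. Whether reads were split between the rows of a pair was not tested. Reads split in this way could not be attributed to either miRNA. Their number cannot be read from the table, and whole values do not show that no reads were shared.

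Heat stressed and heat resistant cows were compared for each form that passed the filter, 11 of the 19 rows. None of the 11 was called by edgeR at an adjusted p under 0.05, and 0 of all 756 features were (0%). At an unadjusted p under 0.05, 0 of the 11 passed, against 146 of 756 features (19.3%). DESeq2 called 0 of the 15 member rows to which it gave an adjusted p, against 51 of 977 features (5.22%). With limma-voom 0 of the 11 were called, and 0 of all 756 features. Of the 11 forms, 6 had a log2 fold change above 0 (heat stressed over heat resistant), as had 49.7% of all features. Their median log2 fold change was 0.07 and that of all 756 features 0.00. The groups overlapped in all 11 forms, whereas 0.926% of the features tested had groups that did not overlap.

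miR-203, which promotes the differentiation of skin cells, had the lowest log2 fold change, -0.80 ± 0.49 (SE; edgeR adjusted p = 0.358). Heat resistant libraries had 731 CPM at the lowest, a median of 979 and 6526 at the highest, and heat stressed libraries 898, 987 and 1606 CPM. The highest value was that of heat resistant library 1, which held 46198 miR-203 reads and 4.06 times the CPM of the next library. By the excess of that library over the highest of the other 11, miR-203 ranked 1 among the 756 features tested. Without that library the other 5 heat resistant libraries had 980 ± 293 CPM (SD, n = 5). The log2 fold change then turned to 0.15 ± 0.21 (SE; edgeR adjusted p = 0.775). With all 12 libraries limma-voom gave -0.28 ± 0.43 (SE; adjusted p = 0.746).

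miR-205, a partner of the miR-200 family in repressing the ZEB factors, was also highest in heat resistant library 1. It stood at 1983 CPM there, against 518 to 1065 CPM in the other 5 heat resistant and 613 to 893 CPM in the heat stressed libraries. Group means were 937 ± 547 CPM in heat resistant and 740 ± 120 CPM in heat stressed cows (SD, n = 6 each). The log2 fold change was -0.34 ± 0.28 (SE; edgeR adjusted p = 0.508), and 0.02 ± 0.19 (adjusted p = 0.983) without that library. By the excess of library 1 over the next library, miR-205 ranked 4 among the 756 features.

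miR-200c, 1 of the 3 family members with the miR-200b seed, had 803 CPM in heat resistant library 1. The other 11 libraries had 258 to 545 CPM, with heat stressed library 6 at the top. Its log2 fold change of -0.28 ± 0.27 (SE; edgeR adjusted p = 0.585) went to -0.01 ± 0.22 (adjusted p = 0.990) without library 1. The excess of library 1 did not extend to the whole family: it held 1883 CPM of miR-200a, 452 CPM of miR-141 and 96.8 CPM of miR-429, ranks 5, 6 and 9 of the 12. Of miR-200b it held 936 CPM, rank 4, and of miR-375, outside the family, 6173 CPM, rank 2. The same library was lowest of all in the summed red cell markers, at 20209 CPM, and second to heat resistant library 2 in the liver markers. Heat resistant library 2, the highest in the liver markers, had 1452 CPM of miR-203 and 1065 CPM of miR-205. Both values were next after library 1 within the heat resistant group. Heat resistant libraries 3 to 6 had 731 to 1049 CPM of miR-203 and 518 to 755 CPM of miR-205. Among heat stressed libraries, library 3 reached 1606 CPM of miR-203. The part of either cell type in the high miR-203 was not tested.

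**Figure D2:**
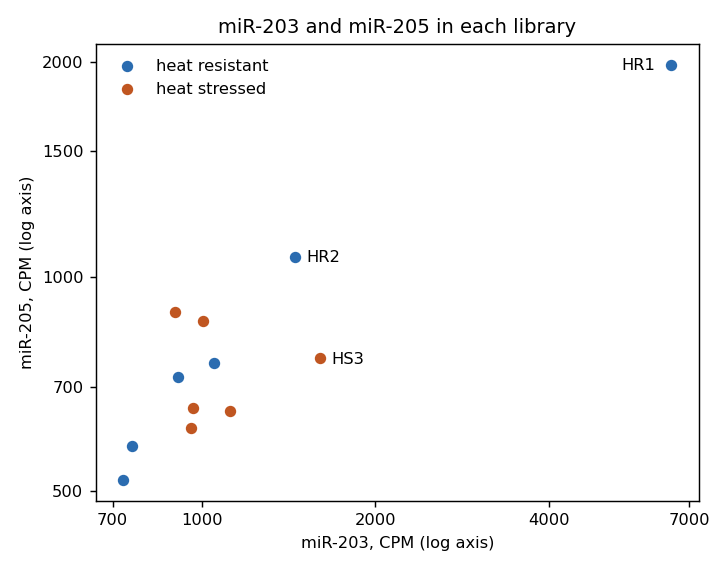
CPM of miR-203 against CPM of miR-205 (both log axes), with a point per library; HR1 and HR2 are heat resistant libraries 1 and 2 and HS3 is heat stressed library 3. HR1 stands alone at 6526 CPM of miR-203 and 1983 CPM of miR-205.

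miR-375, the islet and secretory miRNA, stood at 4475 ± 1695 CPM in heat resistant and 3795 ± 531 CPM in heat stressed cows (SD, n = 6 each). Its values in heat resistant libraries ran from 2354 CPM over a median of 4381 to 6491 CPM, and in heat stressed libraries from 3186 over 3778 to 4392 CPM, so all heat stressed values lay inside the heat resistant range. The log2 fold change was -0.24 ± 0.22 (SE; edgeR adjusted p = 0.576). The lowest value was in heat resistant library 4, which had the highest summed red cell markers of all libraries, 97785 CPM. In that library and in heat resistant library 6 all 8 main forms lay below their median over the 12 libraries, while in heat resistant library 2 and heat stressed library 2 none did. The part of red cells in these values was not tested. Without heat resistant library 4 the log2 fold change of miR-375 was -0.36 ± 0.19 (SE; edgeR adjusted p = 0.235). Without library 6 of that group it was -0.38 ± 0.23, without library 1 -0.13 ± 0.22 and without library 3 -0.13 ± 0.23 (SE), with edgeR adjusted p of 0.380, 0.836 and 0.823.

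The remaining main forms of the miR-200 family had group differences of about 1 SE or less. miR-200a stood at 1766 ± 344 CPM in heat resistant and 1857 ± 301 CPM in heat stressed cows, and its neighbour miR-429 at 101.3 ± 22.7 and 108 ± 19.1 CPM (SD, n = 6 each). In the same order, edgeR gave log2 fold changes of 0.07 ± 0.15 and 0.09 ± 0.17 (SE; adjusted p = 0.846 and 0.834). miR-200b stood at 792 ± 257 in heat resistant and 680 ± 162 CPM in heat stressed cows (SD, n = 6 each), a log2 fold change of -0.22 ± 0.22 (SE; edgeR adjusted p = 0.591). miR-141, from the other cluster, stood at 426 ± 82.6 and 483 ± 107 CPM (SD, n = 6 each), with 0.18 ± 0.17 on the log2 scale (SE; edgeR adjusted p = 0.586). These tests do not show that the groups are equal, since changes the size of these SE cannot be told from 0 with 6 cows a group.

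**Figure D3:**
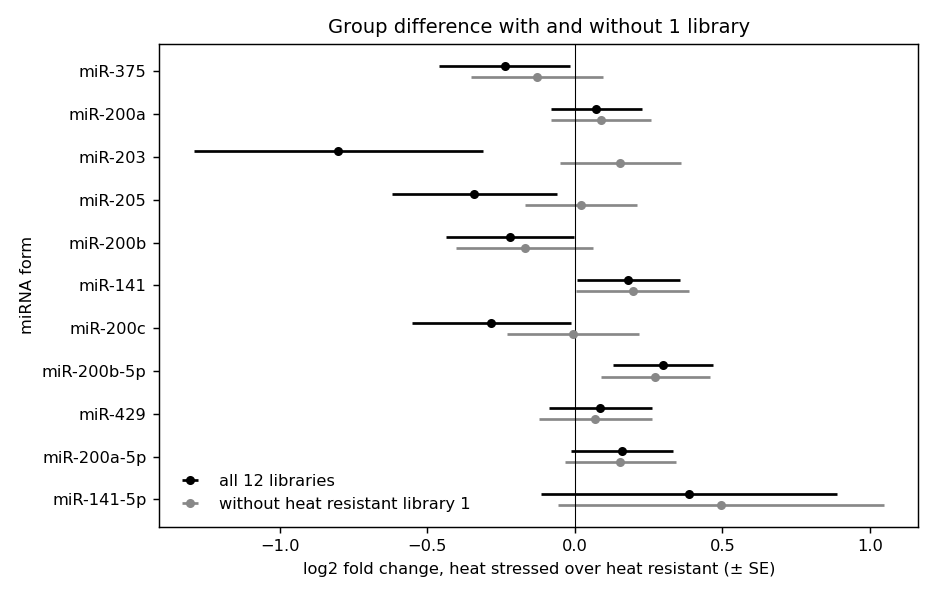
Log2 fold change of heat stressed over heat resistant cows for the 11 tested forms, with bars of 1 SE, from all 12 libraries (black) and without heat resistant library 1 (grey). miR-203 moves from -0.80 to 0.15 and miR-205 from -0.34 to 0.02, while miR-200a and miR-429 stay near 0.

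The less abundant products from the 5p arm were tested for 3 members of the miR-200 family. They stood on rows with mouse or human names, whose main forms carry no arm in their cattle names. The 5p form of miR-200b had 128 CPM at the lowest, a median of 162 and 230 CPM at the highest in heat resistant libraries. Its heat stressed values were 163, 231 and 239 CPM, and all 6 lay above the heat resistant median. The log2 fold change was 0.30 ± 0.17 (SE), and its adjusted p of 0.324 (edgeR) was the smallest among the 11 forms. The 5p form of miR-200a stood at 30.9 ± 7.12 and 34.4 ± 5.14 CPM in heat resistant and heat stressed cows (SD, n = 6 each), with a log2 fold change of 0.16 ± 0.17 (SE; edgeR adjusted p = 0.6246). That of miR-141 had 5 to 35 reads per library and a log2 fold change of 0.39 ± 0.50 (SE; edgeR adjusted p = 0.697).

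Ratios of reads between 2 forms of the same library do not depend on how libraries are scaled, and 6 such ratios were compared. Their log2 values include a small added count that does depend on library size. For the 5p form of miR-141 the group difference was 0.26 with an added count of 0.5 and 0.16 with 5. The 5p form of miR-200b had 17.1 to 32.0 reads per 100 reads of the main form in heat resistant libraries, with a median of 22.9. It had 21.7 to 47.4 in heat stressed libraries, with a median of 31.1, and the groups overlapped. The mean log2 ratio was -2.15 ± 0.320 in heat resistant and -1.66 ± 0.432 in heat stressed cows (SD, n = 6 each; exact 2-sided permutation p = 0.0541, adjusted 0.162). The 5p form of miR-200a had only 1.23 to 2.73 reads per 100 of its main form over the 12 libraries, and that of miR-141 had 0.169 to 0.870. Their log2 ratios differed between the groups by 0.09 and 0.22 (exact permutation p = 0.587 and 0.617; adjusted 0.740 for each).

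Within the cluster of miR-200b, miR-200a and miR-429, heat resistant libraries had 595 to 967 reads of miR-200b per 100 reads of miR-429, with a median of 796. Heat stressed libraries had 578 to 683, with a median of 627, and all 6 lay below the heat resistant median. The mean log2 ratio was 2.93 ± 0.276 against 2.64 ± 0.0887 (SD, n = 6 each; exact 2-sided permutation p = 0.0455, adjusted 0.162), so the difference did not pass after adjustment over the 6 ratios. Between the clusters, miR-200a to miR-141 gave a mean log2 ratio of 2.05 ± 0.197 in heat resistant and 1.96 ± 0.211 in heat stressed cows (SD, n = 6 each; exact permutation p = 0.439, adjusted 0.740). For miR-200b to miR-200c the means were 0.95 ± 0.364 and 0.96 ± 0.123 (SD, n = 6 each), and both the exact permutation p and its adjusted value were 0.976. Heat resistant library 1 had 117 reads of miR-200b per 100 of miR-200c, and the other 11 libraries 176 to 227.

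**Figure D4:**
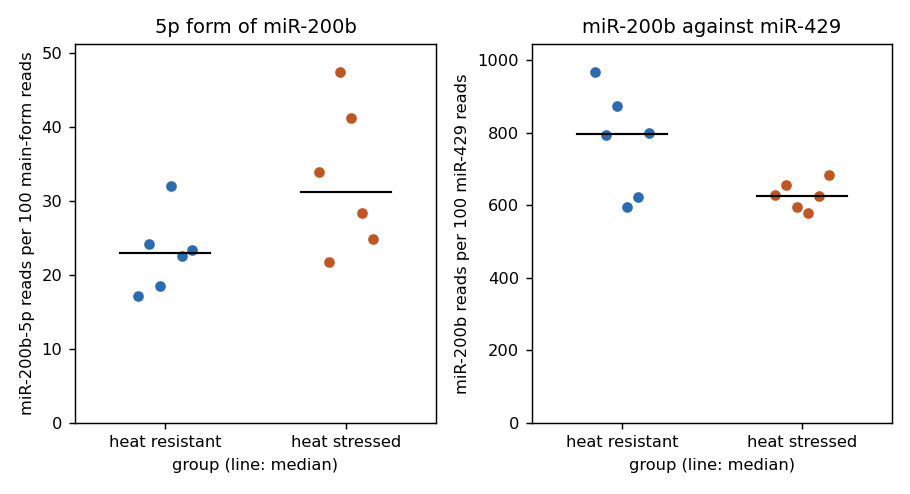
Reads of the 5p form of miR-200b per 100 reads of its main form (left) and reads of miR-200b per 100 reads of miR-429 (right) in each library, with a line at each group's median. The heat stressed medians are 31.1 and 627 against 22.9 and 796 in heat resistant libraries, and the groups overlap in both panels.

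Across the 12 libraries the main forms varied together to different degrees. Pearson's r of log2 CPM was above 0 in all 28 pairs of the 8 main forms, from 0.03 to 0.90 with a median of 0.61. In 8 pairs both Pearson's r and Spearman's rho had an adjusted permutation p under 0.05 (100000 resamples, adjusted over the 28 pairs). The 8 pairs joined miR-200a, miR-200b, miR-200c, miR-141, miR-429 and miR-375, and neither miR-203 nor miR-205 was in them. All values come from the same libraries and share their scaling.

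The pair miR-375 and miR-200b, whose genes stand apart, had r = 0.89 and rho = 0.86 (permutation adjusted p = 0.00196 and 0.00364). It had r = 0.97 within the heat resistant and 0.69 within the heat stressed group, and 0.83 without the 2 libraries farthest from the median of miR-375. miR-200b and miR-200c, which lie in different clusters and share a seed, had r = 0.86 and rho = 0.90 (permutation adjusted p = 0.00434 and 0.00364). The 2 also had values that were not whole in the same 6 libraries. Their r was 0.84 without the 2 farthest libraries. The neighbours miR-200a and miR-200b had r = 0.83 and rho = 0.86 (permutation adjusted p = 0.00728 and 0.00364), and r = 0.74 without the 2 farthest libraries.

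miR-203 and miR-205, the pair of skin miRNAs, had the highest r, 0.90, with rho = 0.66 (permutation adjusted p = 0.00779 and 0.0518). It was 0.97 within the heat resistant and 0.00 within the heat stressed group. Without heat resistant library 1 it was 0.63, and without that library and heat stressed library 3, the 2 farthest from the median of miR-203, it was 0.74. The relation over all heat resistant libraries thus includes 1 library that holds much of the range, and it was not seen within the heat stressed group. With the other main forms, miR-203 had r of 0.73 for miR-200c (rho = 0.63; permutation adjusted p = 0.0453 and 0.0594), 0.53 for miR-375 and 0.36 for miR-200b. For miR-200a, miR-141 and miR-429 its r was 0.14, 0.05 and 0.03. These values moved with the same 2 libraries: without them r was 0.59 for miR-200c, 0.56 for miR-141 and 0.71 for miR-429. Without heat resistant library 1 alone, r was 0.27, 0.08 and 0.30 in the same order. It was 0.87, 0.36 and 0.16 within the heat resistant and -0.08, -0.59 and -0.39 within the heat stressed group.

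**Figure D5:**
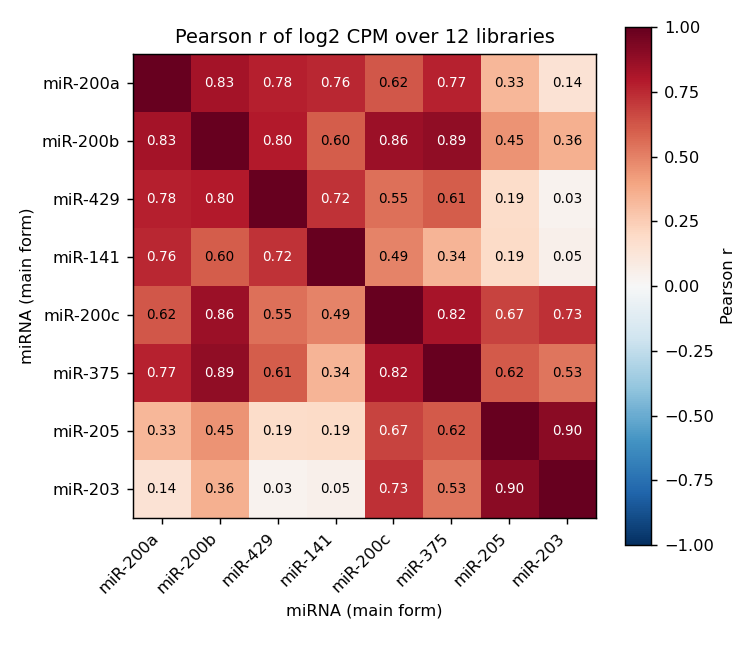
Pearson's r of log2 CPM over the 12 libraries between the 8 main forms, with the value written in each cell. Values among the miR-200 family and miR-375 run from 0.34 to 0.89, and those of miR-203 and miR-205 with these 6 from 0.03 to 0.73, so the ranges overlap; miR-203 with miR-205 stands at 0.90.

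The 5p forms varied with each other. The 5p forms of miR-200a and miR-200b had r = 0.84 and rho = 0.77 over the 12 libraries (permutation adjusted p = 0.00378 and 0.0145 over 3 pairs examined after the values were seen), and r = 0.89 without the 2 farthest libraries. The 5p form of miR-200a had r = 0.31 and rho = 0.31 with its main form (permutation adjusted p = 0.434 and 0.481), and that of miR-200b had r = 0.25 and rho = 0.16 with its own (0.434 and 0.616). In heat resistant libraries these last 2 r were 0.85 and 0.74, and in heat stressed libraries -0.68 and -0.12.

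For each main form the 3 most similar cattle features outside the group were taken from 438 candidates by Pearson's r over the 12 libraries, which is a description only. miR-429 was most like miR-194 (r = 0.90), miR-215 (0.85) and miR-378c (0.79). miR-194 and miR-215, miRNAs of gut and liver epithelium, were also the 2 most like miR-200b (0.79 and 0.77), followed by miR-125b (0.77). miR-200a was most like miR-378 (0.86), miR-215 (0.80) and miR-378c (0.76), and miR-141 most like miR-96 (0.82), miR-194 (0.81) and miR-885 (0.78). miR-375 was most like miR-125b (0.88), miR-125a (0.83) and miR-331-3p (0.79). In the same order, these last r were 0.93, 0.91 and 0.86 within the heat resistant and 0.59, 0.60 and 0.47 within the heat stressed group. Within the heat stressed group, miR-200b with miR-125b had r = 0.34 and miR-429 with miR-378c 0.38. In that group miR-194 had r = 0.93 with miR-200b and 0.97 with miR-429.

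Apart from miR-125b, the skin miRNAs and miR-200c were nearest to other features. miR-203 was most like miR-30a-5p (r = 0.81), miR-148a (0.77) and the 3' product of miR-2904-2 (0.76). Without heat resistant library 1 these r were 0.59, 0.42 and 0.36. miR-205 was most like miR-365-3p (0.85), miR-30a-5p (0.81) and miR-182 (0.78), and miR-200c like miR-182 (0.82), miR-30a-5p (0.68) and miR-125b (0.68). Without heat resistant library 1 the r of miR-205 with these features, in the same order, were 0.79, 0.58 and 0.63, and those of miR-200c were 0.69, 0.35 and 0.60.

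Other miRNAs of epithelial and secretory cells were counted for comparison (miR-31, miR-182, miR-183, miR-96, miR-184, miR-224, miR-7, miR-192, miR-194, miR-215 and miR-148a). Of their 24 rows 19 were tested, and edgeR called 0 of them, with 6 log2 fold changes above 0 and 13 below. At an unadjusted p under 0.05, 1 was higher and 2 were lower in heat stressed cows, against 9.13% and 10.2% of all features. The most abundant were miR-192, miR-215 and miR-148a, with means of 48104, 17575 and 14034 CPM over the 12 libraries, each above every member of the group described here. Their log2 fold changes were -0.02 ± 0.15, -0.03 ± 0.16 and -0.22 ± 0.15 (SE; edgeR adjusted p = 0.954, 0.954 and 0.409).

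The 8 member rows that did not pass the filter were sparse, and since no member value above 0 was under 5 reads, a 0 may stand for a few reads. The 3p form of miR-205, the passenger arm, had counts in 9 libraries and at most 23 reads. A row of miR-429 with a marmoset name had 115 reads in heat resistant library 1, 9 in heat resistant library 2 and was listed at 0 in the other 10. A row of miR-203 with an opossum name had up to 66 reads, in heat stressed library 2, and a variant of it with 1 base changed had up to 44 reads in the same library. Another opossum row of miR-429 had at most 8 reads. miR-203b had 6 to 8 reads in 3 libraries. The 5p form of miR-200c had 7 reads in 1 library, and a base variant of miR-141 had 17 reads in 1 library.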

How the data were processed

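Small RNA of blood from 12 cows was sequenced (6 heat resistant, 6 heat stressed, grouped by their labels), although the protocol text speaks of 9 libraries. Per the labels' protocols, the authors filtered reads with ACGT101-miR to remove adapter dimers, junk, low complexity reads, common RNA families and repeats. Neither the aligner nor the miRBase release or genome build is named there. The deposited table holds expected counts (raw read counts per row, not always whole, per the file headers). Its normalized columns, a signal that the authors made by multiplying each library by 1 constant (0.692 to 1.70), entered no test. The 2183 rows have 1981 names, and repeat rows with equal values were counted once, which gave totals of 3992952 to 9813801 counts.

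Counts were rounded and tested with edgeR 4.0.16 in R 4.3.3 (filterByExpr with minimum count 10, TMM, quasi-likelihood F test, robust, Benjamini-Hochberg over 756 features, threshold 0.05). SE is the log2 fold change over the root of F. On simulated data from these libraries 72 of 100 features changed 2-fold and 90 of 100 changed 4-fold were recovered among 756, and 8 of 556 unchanged ones were called. The simulation drew each feature independently, without libraries that depart in many features at once. These rates therefore need not hold for the real libraries. Ratios used a prior count of 2, scaled to each library's adjusted total, and an exact permutation test over all 924 splits. The smallest p of that permutation test is 0.00216. Alternatives were DESeq2 1.42.0, limma-voom 3.58.1, other scalings and filters, summed repeat rows and left-out libraries. Text names every tested member row, the 3 features most like each main form and the 3 most abundant of the other epithelial list. Members and lists were chosen with earlier results of these data known. Each library is taken as 1 cow. The p-values of group comparisons set a group difference against the spread between these samples. Those of correlations set r or rho against values from libraries in shuffled order.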

Additional observations from a re-analysis of the deposited data

Results flagged for a closer look

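In each group of 6 libraries, a highest or lowest value was looked for whose gap to the next was large against the range of the group (above Dixon's critical value for 6 samples). Of 47 groups of values 12 had one. For normally distributed values chance flags about 1 in 20 groups. CPM values need not be so distributed, so the rate of chance flags among them is not known. Nor does the rate apply to rows with many zeros, where 1 value above 0 is enough. miR-203 was high in heat resistant library 1 (6526 CPM, next 1452) and in heat stressed library 3 (1606 CPM, next 1118). miR-205 was high in heat resistant library 1 (1983 CPM, next 1065). miR-200c was high in heat stressed library 6 (545 CPM, next 350). The log2 ratio of miR-200b to miR-200c was low in heat resistant library 1 (0.22).

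The other 7 were sparse rows that had not passed the filter on low counts. They were the marmoset-named row of miR-429 in heat resistant library 1 (16.2 CPM) and the opossum-named row of miR-203 in heat stressed library 2 (7.69 CPM). The base variant of the latter was high in heat resistant library 1 (3.11 CPM) and heat stressed library 2 (5.12 CPM). The rest were miR-203b in heat resistant library 1 (1.13 CPM), the base variant of miR-141 in heat stressed library 2 (1.98 CPM) and the 5p form of miR-200c in heat stressed library 6 (1.11 CPM). In the last 3, the other 5 libraries of the group were listed at 0.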

How the results depend on the processing

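No member was called under any of the 22 alternatives of the group comparison, and the adjusted p of the 11 forms was at least 0.229. The count of all features called, 0 with edgeR, was 11 without a filter, 13 with repeat rows summed and 51 with DESeq2, and ran from 0 to 97 when 1 library was left out (97 without heat resistant library 4, 29 without heat stressed library 2, 2 without heat resistant library 5). Same-numbered libraries had no labelled link beyond the number, and whether they were paired is not known. Their deviations from the group means correlated above 0.1 in 2 of 6 pairs, and 2 of 6 pairs were each other's best match. With the number as a replicate block 8 features and 0 members were called, and miR-203 was at -0.22, miR-205 at -0.18 and miR-375 at -0.15; limma-voom gave -0.28, -0.19 and -0.14 for the same 3.

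Of 238 alternative log2 fold changes of members 228 kept their sign and 10 turned it. With heat resistant libraries 1 and 2 left out together, miR-203 was at 0.32, miR-205 at 0.18, miR-200c at 0.045 and miR-375 at -0.068, and with cattle names only miR-200a was at -0.0096. Leaving out 1 library at a time gave -1.01 to 0.15 for miR-203, -0.52 to 0.022 for miR-205, -0.025 to 0.14 for miR-200a and -0.065 to 0.15 for miR-429. For miR-203 and miR-205 the library was heat resistant 1, and for miR-200a and miR-429 heat resistant 6 or heat stressed 6. The forms that kept their sign ranged from -0.38 to -0.13 (miR-375), -0.40 to -0.11 (miR-200b), -0.50 to -0.0062 (miR-200c) and 0.019 to 0.28 (miR-141). The ends for miR-200b were without heat stressed library 6 and heat resistant library 3, and for miR-141 without heat stressed library 6 and heat resistant library 2. The 5p forms ranged from 0.15 to 0.38 (miR-200b), 0.045 to 0.26 (miR-200a) and 0.16 to 0.64 (miR-141), each lowest without heat resistant library 6. Among log2 ratios leaving out 1 library gave -0.13 to 0.059 for miR-200b to miR-200c, -0.019 to 0.40 for the 5p form of miR-141 and -0.020 to 0.21 for that of miR-200a. The other causes were not tested. No ratio passed under any alternative, with an adjusted p of at least 0.0779. Depth limits the 5p form of miR-141 and the 8 untested rows.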
